A study of Homo sapiens with 3 samples.

Results

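The non-canonical NF-κB pathway was followed here through 10 genes, NFKB2, RELB, TRAF3, TRAF2, BIRC2, BIRC3, MAP3K14, CHUK, CD40 and LTBR, taken by symbol from the 43913 genes listed in 3 tables of single-cell counts. All 10 were listed. The question was which brakes (TRAF3, BIRC2 and BIRC3) and which receptors (CD40 and LTBR) each of 2 cell types held, alone and together. The libraries were made by Drop-seq, in which cells are enclosed in droplets together with beads that carry a barcode per cell, and RNA molecules are counted as unique molecular identifiers (UMIs). There was 1 library of the established myeloma cell line MM.1S and 1 of the established stromal line HS-5, which derives from human bone marrow, each grown alone and untreated, and 1 of both lines after 4 h of coculture. Each cell type is represented by 1 line in a flat culture without the other cells of the marrow, and with 1 library per condition there is no replicate, so no test was made.

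In resting cells the brakes keep the pathway shut: TRAF3 ties the kinase NIK, the product of MAP3K14, to TRAF2 and to the ubiquitin ligases cIAP1 and cIAP2, the products of BIRC2 and BIRC3, which mark NIK for destruction. Receptors of the TNF receptor superfamily such as CD40, BAFF receptor and the lymphotoxin-β receptor draw the brake complex to the membrane, where TRAF3 is lost and NIK builds up. NIK then activates IKKα, the product of CHUK, which drives the cutting of the NFKB2 precursor to its active form, the partner of RELB. The pathway is known for B-cell survival and lymphoid organ stroma, and mutations that remove its brakes recur in multiple myeloma.

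The genes NFKB2 and BIRC3 are textbook targets of NF-κB itself. RefSeq windows of the 250 bases before a transcription start (GRCh38.p14) were found for 8 of the 10 genes, 11 windows in all; RELB and CD40 had no entry. The κB consensus, searched by name on both strands with overlapping matches counted as 1 stretch, occurred in 4 of these 11 windows, against 9.96% of all 35116 windows in the table. The 4 were those of TRAF3 and BIRC3 and 2 of the 3 windows of NFKB2, which thus counts more than once. Of these NFKB2 windows, 1 lay wholly within annotated exons. The lines below give TRAF3 and LTBR, whose levels separated the lines most clearly beside CD40, and the targets NFKB2 and BIRC3, cut to the bases outside annotated exons, in lower case with matches in capitals.
TRAF3, chr14:102777199-102777448, plus strand: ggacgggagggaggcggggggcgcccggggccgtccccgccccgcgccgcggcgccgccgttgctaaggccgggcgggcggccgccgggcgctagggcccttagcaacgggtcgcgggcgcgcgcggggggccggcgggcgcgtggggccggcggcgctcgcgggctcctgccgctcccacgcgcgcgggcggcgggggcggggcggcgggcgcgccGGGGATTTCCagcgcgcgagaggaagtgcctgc
LTBR, chr12:6383912-6384032, plus strand: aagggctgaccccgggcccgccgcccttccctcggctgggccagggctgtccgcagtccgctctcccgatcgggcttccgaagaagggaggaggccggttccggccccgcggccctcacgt
NFKB2, the start farthest downstream, chr10:102395455-102395692, plus strand: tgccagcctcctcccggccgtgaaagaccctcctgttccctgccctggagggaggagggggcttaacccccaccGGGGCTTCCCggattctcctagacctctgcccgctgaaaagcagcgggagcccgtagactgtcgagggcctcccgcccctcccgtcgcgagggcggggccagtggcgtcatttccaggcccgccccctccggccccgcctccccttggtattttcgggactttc
BIRC3, chr11:102317234-102317449, plus strand: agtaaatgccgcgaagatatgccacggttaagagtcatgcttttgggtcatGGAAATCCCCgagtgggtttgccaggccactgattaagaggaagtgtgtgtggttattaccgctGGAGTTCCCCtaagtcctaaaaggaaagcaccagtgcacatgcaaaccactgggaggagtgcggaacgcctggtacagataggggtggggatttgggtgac
The bases shown held 1 stretch for TRAF3, 1 for NFKB2 and 2 for BIRC3, and none for LTBR. The match is one of letters only, and no binding was measured.

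The libraries held 3865 to 3994 barcodes and 3981392 to 10433182 UMIs. Barcodes with 200 or more genes detected were used, 3947 of MM.1S, 3732 of HS-5 and 3856 of the coculture. Coculture cells were given to a line by 73 MM.1S genes and 224 HS-5 genes that were at least 50-fold different between the monocultures and held none of the genes listed here, which left 1635 MM.1S and 2109 HS-5 cells; 109 cells with UMIs of both lines were left out. The median cell held 2201 UMIs in MM.1S monoculture, 670 in MM.1S cells of the coculture, and 971.5 and 957 in HS-5. Of 10 plasma cell markers, 8 were at least 2-fold higher in the MM.1S monoculture, but SDC1 and SLAMF7 were not. Of 10 stromal markers only 5 were at least 2-fold higher in HS-5, with COL3A1, FN1, CAV1, TAGLN and LGALS1 not among them. SDC1 and FN1 were past 2-fold the other way. SDC1 had 38.1 CPM in MM.1S and 135 CPM in HS-5 monoculture, and FN1 had 810 and 252 CPM. The plasma cell markers summed to 10382 and 7054 CPM in MM.1S alone and in coculture and to 212 and 230 CPM in HS-5, the stromal markers to 5321 and 7028 CPM in HS-5 and to 3126 and 3834 CPM in MM.1S. RNA of the other line made up an estimated 1.71% of the UMIs of cocultured MM.1S cells and 0.853% of those of HS-5. Between 39 and 76 barcodes occurred in both of a pair of libraries, and without them no count below of the 10 genes past 2-fold changed. The numbers of all genes set beside them shifted slightly, as from 8814 to 8807 in HS-5, coculture over monoculture.

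UMIs were summed over the cells of each group and scaled to counts per 1000000 UMIs (CPM). Levels carry 95% exact Poisson intervals, and log2 ratios of CPM carry 95% exact conditional intervals, all of which cover counting error only. The plot of levels gives all 10 genes in the 4 cell groups.

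**Figure D1:**
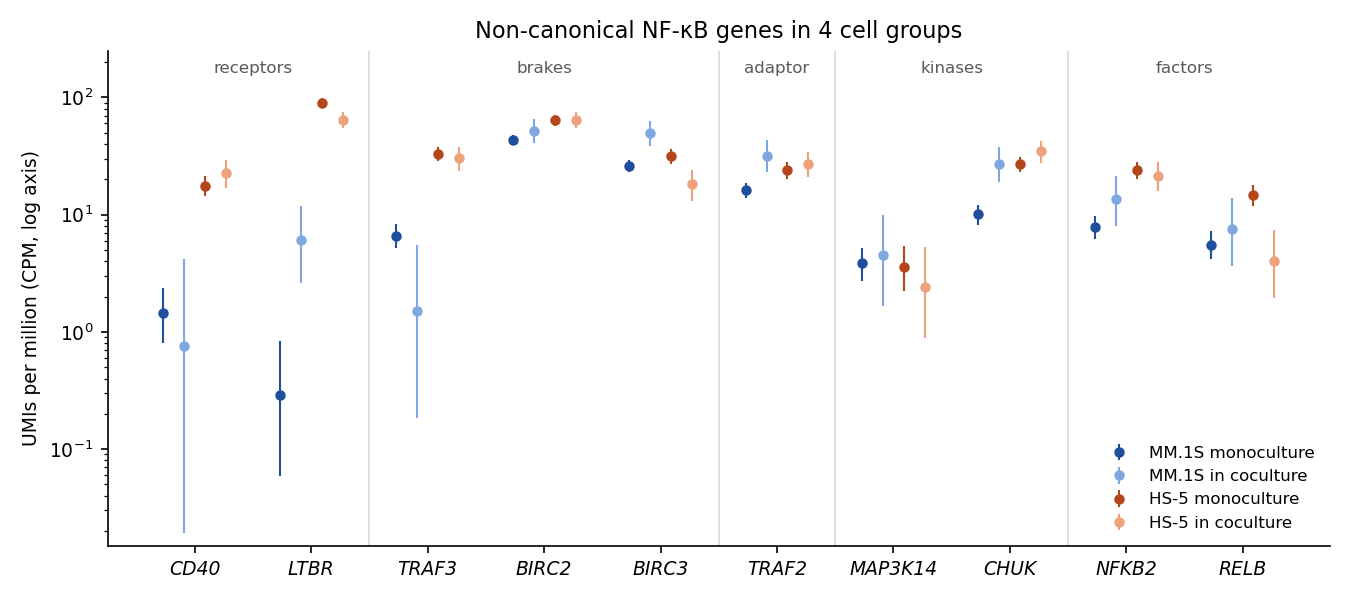
Levels of the 10 non-canonical NF-κB genes in MM.1S and HS-5 cells, alone and in coculture, in CPM on a log axis, with points for the summed cells of a group and bars for 95% exact Poisson intervals. The HS-5 points of CD40, LTBR and TRAF3 lie above both MM.1S points, while those of BIRC2 and MAP3K14 lie close to them.

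Between the monocultures, the receptor genes had the highest ratios of HS-5 over MM.1S among the 10 genes, and within the coculture TRAF3 had a higher ratio than LTBR. LTBR (chr12:6375045-6391571, plus strand, GENCODE release 29 on GRCh38 here and for all genes), the lymphotoxin-β receptor through which lymphotoxin and LIGHT signal, had 555 UMIs or 90.4 CPM in HS-5 monoculture (83.0 to 98.2) and 161 UMIs or 64.7 CPM in HS-5 cells of the coculture (55.1 to 75.5). MM.1S monoculture had 3 UMIs of it, 0.288 CPM (0.059 to 0.840), which is no more than the 3 counts taken as the floor. The log2 ratio of HS-5 over MM.1S was 8.30 between monocultures (6.74 to 10.58). In the coculture, MM.1S cells had 8 LTBR UMIs or 6.05 CPM (2.61 to 11.9), and the log2 ratio between the lines was 3.42 (2.41 to 4.66). Those 8 UMIs came from only 2 cells, and 5 of them from 1 cell. An estimated 1.46 UMIs of LTBR in these cells would come from HS-5 RNA in the droplets. The gene overlaps SCNN1A on the opposite strand, which stayed at or below 1.53 CPM in the 4 groups.

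CD40 (chr20:46118272-46129863, plus strand), the receptor for CD40 ligand on helper T cells, showed the same side. It had 108 UMIs or 17.6 CPM in HS-5 monoculture (14.4 to 21.2) and 56 UMIs or 22.5 CPM in cocultured HS-5 (17.0 to 29.2). MM.1S monoculture had 15 UMIs, 1.44 CPM (0.805 to 2.37), and cocultured MM.1S had 1 UMI, 0.756 CPM. The log2 ratio of HS-5 over MM.1S was 3.61 (2.83 to 4.50) between monocultures and 4.90 (2.36 to 10.23) within the coculture. In the MM.1S monoculture 12 of the 15 CD40 UMIs were in a single cell, and without it the level was 0.288 CPM. In HS-5 monoculture they were spread over 103 cells, with no more than 2 in any.

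Among the brakes, TRAF3 was at least 2-fold higher in HS-5 both alone and in the coculture. TRAF3 (chr14:102777476-102911500, plus strand), the adaptor that holds NIK in the brake complex, had 202 UMIs or 32.9 CPM in HS-5 monoculture (28.5 to 37.7) and 75 UMIs or 30.2 CPM in cocultured HS-5 (23.7 to 37.8). MM.1S monoculture had 69 UMIs in 60 cells, 6.61 CPM (5.15 to 8.37), and cocultured MM.1S had 2 UMIs, 1.51 CPM (0.183 to 5.46). HS-5 was thus above MM.1S by a log2 ratio of 2.31 between monocultures (1.91 to 2.73) and 4.32 within the coculture (2.42 to 7.39), where both lines share a library. Of the 2 UMIs in cocultured MM.1S cells, 0.681 would be expected from HS-5 RNA. In cells of 400 to 1200 UMIs alone, none of 357 MM.1S monoculture cells held a TRAF3 UMI. In that window 56 UMIs, or 33.0 CPM, came from 2243 HS-5 monoculture cells. For those MM.1S cells 3 UMIs were worth 7.86 CPM, more than the 6.61 CPM of the whole monoculture. A count of 0 there thus does not show absence.

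The genes that lie next to TRAF3 were read in the same groups. Within 250 kb, 3 other genes reached 10 CPM in any group. RCOR1, a transcriptional corepressor 46.9 kb away, had 6.90 CPM in MM.1S and 29.6 CPM in HS-5 monoculture, but 21.2 and 28.9 CPM in the cocultured cells of each. CDC42BPB, a kinase gene 20.9 kb away, had 4.98 CPM in MM.1S and 83.2 CPM in HS-5 monoculture, and 9.07 and 76.0 CPM in the coculture. TNFAIP2, 212 kb away, had 4.22 and 36.3 CPM, and 12.8 and 28.9 CPM in the coculture. All 3 had lower levels in MM.1S than in HS-5, although for RCOR1 in the coculture the interval of the log2 ratio held 0 (-0.20 to 1.14). By contrast with TRAF3, cocultured MM.1S cells had a higher level of each than the monoculture. For CDC42BPB the log2 ratio of that difference had an interval that held 0 (-0.18 to 1.79). These neighbours were chosen after the values of TRAF3 were seen.

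BIRC2 and BIRC3, which lie 7.81 kb apart on chromosome 11, were held by both lines. BIRC2 (chr11:102347211-102378670, plus strand), which encodes cIAP1, had 451 UMIs or 43.2 CPM in MM.1S monoculture (39.3 to 47.4), 52.1 CPM in cocultured MM.1S (40.6 to 66.0), 63.7 CPM in HS-5 monoculture (57.5 to 70.3) and 64.7 CPM in cocultured HS-5 (55.1 to 75.5). The log2 ratio of HS-5 over MM.1S was 0.56 between monocultures (0.36 to 0.76), no more than the median of all genes in that comparison, and 0.31 within the coculture (-0.10 to 0.74). The levels of BIRC2 were thus within the spread of counting error in the coculture. BIRC3 (chr11:102317450-102339403, plus strand), which encodes cIAP2, had 271 UMIs or 26.0 CPM in MM.1S monoculture (23.0 to 29.3) and 193 UMIs or 31.4 CPM in HS-5 monoculture (27.1 to 36.2). In the coculture it had 66 UMIs or 49.9 CPM in MM.1S (38.6 to 63.5) and 45 UMIs or 18.1 CPM in HS-5 (13.2 to 24.2). At plain CPM the log2 ratio of HS-5 over MM.1S for BIRC3 was 0.27 between monocultures (0.00072 to 0.55) and -1.46 within the coculture (-2.04 to -0.89). Between monocultures it turned to -0.19 with median-of-ratios scaling and -0.07 with TMM scaling (pseudocount of 1 CPM). The order of the lines grown alone thus depended on the scaling, and a change of order in the coculture was not shown. BIRC3 UMIs were also clustered in HS-5 monoculture, where 114 cells held the 193 UMIs and 1 cell held 13. The 374 cells with the most UMIs in that group had 45.4 CPM (37.3 to 54.8) against 22.3 CPM in the other 3358 (17.8 to 27.7).

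Summed over the 3 brakes, MM.1S monoculture had 75.8 CPM (70.6 to 81.3) and HS-5 monoculture 128 CPM (119 to 137), while the cocultured cells had 104 CPM in MM.1S (86.9 to 122) and 113 CPM in HS-5 (100 to 127), 2 intervals that overlap. Between monocultures the median log2 ratio of all genes was itself 0.56 at plain CPM. It was 0.07 with median-of-ratios and 0.20 with TMM scaling, under which the sums were not read. Each line held BIRC2 and BIRC3. TRAF3 was the only one of the 3 brakes with an interval that lay above 0 for HS-5 over MM.1S both alone and in the coculture.

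Of the adaptor and kinase genes, CHUK alone was at least 2-fold different between the monocultures, and none was in the coculture among those that reached a mean of 10 CPM. TRAF2 (chr9:136881912-136926607, plus strand), which bridges TRAF3 to the cIAPs, had 16.1 CPM in MM.1S (13.8 to 18.7) and 23.9 CPM in HS-5 (20.2 to 28.1) grown alone, and 31.7 CPM (22.9 to 42.9) and 26.9 CPM (20.9 to 34.2) in the coculture. It came to a log2 ratio of HS-5 over MM.1S of 0.57 alone (0.24 to 0.90) and -0.24 together (-0.81 to 0.36). MAP3K14 (chr17:45263119-45317145, minus strand), the gene of NIK, was scarce everywhere, with 40, 6, 22 and 6 UMIs in MM.1S monoculture, cocultured MM.1S, HS-5 monoculture and cocultured HS-5, or 3.83, 4.53, 3.58 and 2.41 CPM. Its interval between monocultures ran from -0.92 to 0.69 on the log2 scale, so a difference of up to about that size was not detectable at this depth. It overlaps MAP3K14-AS1 on the opposite strand, at or below 1.51 CPM. CHUK (chr10:100188298-100229619, minus strand), the gene of IKKα, had 10.1 CPM in MM.1S monoculture (8.23 to 12.2), 27.2 CPM in cocultured MM.1S (19.1 to 37.7), 26.9 CPM in HS-5 monoculture (22.9 to 31.3) and 34.6 CPM in cocultured HS-5 (27.7 to 42.7). MM.1S cells grown alone stood below the other 3 groups, with a log2 ratio of HS-5 over MM.1S of 1.42 (1.05 to 1.78), and in the coculture the lines differed by 0.35 (-0.23 to 0.95). CHUK overlaps ERLIN1, which had 27.4 to 136 CPM, on the same strand, so some reads could be counted for either gene.

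The transcription factor genes were both higher in HS-5 when the lines grew alone. NFKB2 (chr10:102394110-102402529, plus strand), which encodes the p100 precursor, had 82 UMIs or 7.86 CPM in MM.1S monoculture (6.25 to 9.76), 13.6 CPM in cocultured MM.1S (8.06 to 21.5), 23.9 CPM in HS-5 monoculture (20.2 to 28.1) and 21.3 CPM in cocultured HS-5 (16.0 to 27.9). HS-5 stood above MM.1S by a log2 ratio of 1.61 alone (1.21 to 2.01) and 0.65 together (-0.15 to 1.51). Single cells with many NFKB2 UMIs occurred in both monocultures, 12 in an MM.1S cell and 14 in an HS-5 cell. RELB (chr19:45001430-45038198, plus strand), the partner of processed NFKB2, had 58 UMIs or 5.56 CPM in MM.1S monoculture (4.22 to 7.19), 10 UMIs or 7.56 CPM in cocultured MM.1S (3.62 to 13.9), 90 UMIs or 14.7 CPM in HS-5 monoculture (11.8 to 18.0) and 10 UMIs or 4.02 CPM in cocultured HS-5 (1.93 to 7.39). Its log2 ratio of HS-5 over MM.1S was 1.40 alone (0.91 to 1.9) and -0.91 together (-2.33 to 0.51), so the lines could not be told apart by RELB in the coculture.

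The counts of genes past 2-fold, taken on log2 ratios with a pseudocount of 1 CPM among genes whose mean of both groups reached 10 CPM, set these values against all genes. Between monocultures, 8 of the 10 genes passed that minimum. NFKB2, RELB, TRAF3, CHUK and LTBR were at least 2-fold higher in HS-5, against 38.1% of 8734 genes, and none was at least 2-fold lower, against 15.3%. The median over all 10 genes was 1.29, and also 1.29 over the 8 that passed, beside 0.56 over all 8734 genes that passed. Within the coculture, 8 passed, of which TRAF3, CD40 and LTBR were at least 2-fold higher in HS-5, against 26.2% of 8886 genes, and BIRC3 was at least 2-fold lower, against 15.8%. The median over all 10 was 0.32, and 0.47 over the 8 that passed, beside 0.17 over all 8886 genes that passed. Only TRAF3 and LTBR were past 2-fold in the same direction in both comparisons by this rule, since CD40 had a mean of 9.51 CPM in the monocultures and did not pass. Genes that are high in 1 line only pass the minimum through that line. The scaling moved these splits: with median-of-ratios scaling 26.7% of genes were higher and 23.6% lower between monocultures, with TMM scaling 29.4% and 21.1%.

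**Figure D2:**
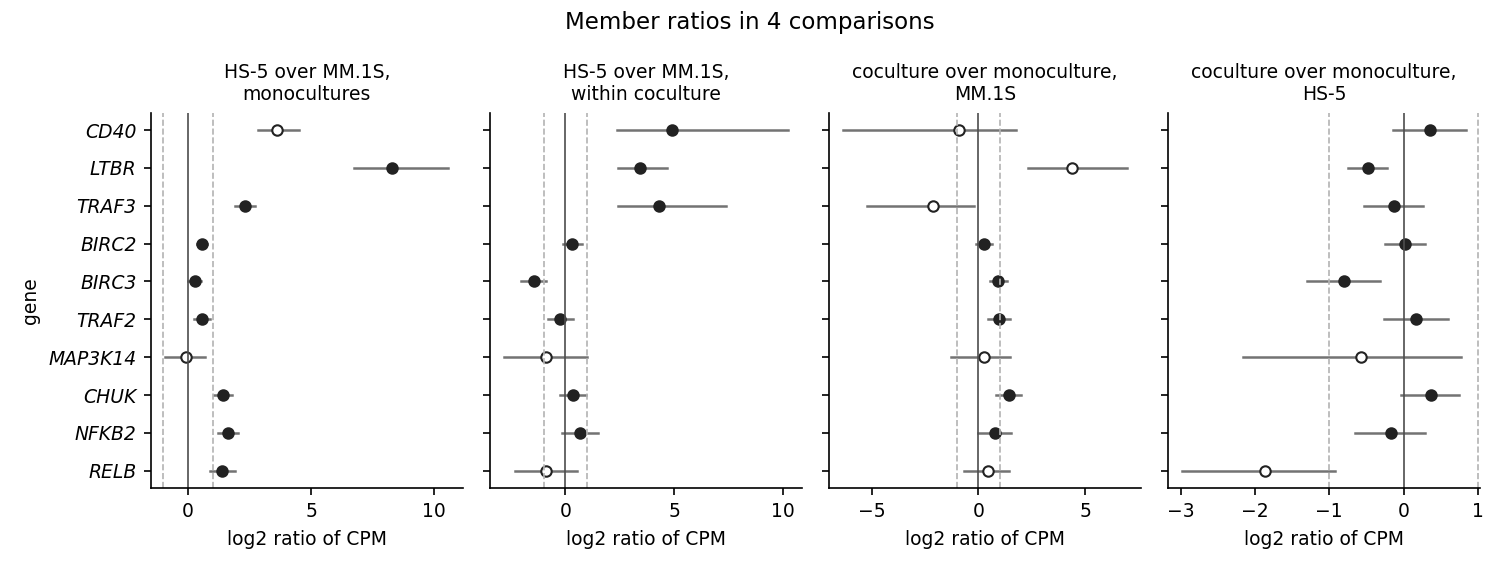
log2 ratios of CPM without a pseudocount for the 10 genes in 4 comparisons, with 95% exact conditional intervals as lines and dashed lines at a 2-fold difference. Filled points reached a mean of 10 CPM, and each panel has its own horizontal range. CD40, LTBR and TRAF3 lie right of the 2-fold line in both panels that compare the lines.

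In MM.1S cells, coculture was compared with monoculture for the change at 4 h, with the library and the condition confounded. The genes that passed the minimum, 5 of 10, all had higher levels in the coculture, as did 4850 of all 7834 genes that passed. CHUK alone was at least 2-fold higher, against 19% of 7834 genes, and none was at least 2-fold lower, against 5.78%, so the share of members was near that of all genes. The ratio of CHUK on the log2 scale was 1.43 (0.85 to 1.99), that of TRAF2 0.98 (0.45 to 1.47) and that of BIRC3 0.94 (0.53 to 1.33). NFKB2 had 0.79 (-0.03 to 1.54) and BIRC2 0.27 (-0.12 to 0.64). These intervals, also those of TRAF2 and BIRC3, hold for plain CPM and were not taken under other scalings. The median over all 10 genes was 0.55, and 0.92 over the 5 that passed, beside 0.24 over all genes that passed. Median-of-ratios scaling put the median of all genes at -0.24, with 8.48% of genes higher and 16.2% lower, and TMM scaling put it at -0.30, with 7.50% and 17.7%; under these the ratio of BIRC2 was -0.21 and -0.26, that of RELB -0.04 and -0.08, and CHUK was no longer past 2-fold, at 0.90 and 0.84.

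Of the genes under the minimum in MM.1S, TRAF3 had a log2 ratio of coculture over monoculture of -2.13 (-5.20 to -0.22), from 2 UMIs against 69. LTBR had 4.39 (2.34 to 6.94), from 8 UMIs against 3. The intervals treat each UMI as a separate count, although all LTBR UMIs of the cocultured cells came from 2 cells. RELB, MAP3K14 and CD40 had intervals that reached both sides of 0.

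In HS-5 cells, none of the 8 genes that passed was at least 2-fold higher in the coculture, against 1.2% of 8814 genes, or lower, against 1.79%. The median over all 10 was -0.14, and -0.05 over the 8 that passed, beside -0.03 over all genes that passed. BIRC3 had a log2 ratio of -0.80 (-1.30 to -0.32) and LTBR one of -0.48 (-0.74 to -0.23). With each cell given equal weight BIRC3 came to -0.23, and in cells of 400 to 1200 UMIs to -0.17 (pseudocount of 1 CPM), settings in which the deep cells of the monoculture weigh less. NFKB2, TRAF3, TRAF2, BIRC2, CHUK and CD40 had intervals that held 0. RELB, with a mean just under the minimum, had -1.87 (-2.97 to -0.92), the lowest ratio among the 10 genes in this comparison, from 10 UMIs in 10 cells against 90 UMIs in 86 cells.

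The share of cells with a UMI was read with each cell thinned to 500 UMIs, so that depth did not differ. This left 3947 MM.1S monoculture cells, 1191 cocultured MM.1S, 3515 HS-5 monoculture and 1809 cocultured HS-5 cells. LTBR was seen in 4.86% of HS-5 cells alone (exact Clopper-Pearson 4.18 to 5.63%) and 3.32% in coculture (2.54 to 4.25%), but in 0 of 3947 MM.1S cells, which at 3 counts allows a share of cells with a UMI of up to 0.076% (exact upper bound 0.0934%), and in 2 of 1191 in coculture. CD40 was seen in 0.768% and 1.05% of HS-5 cells, and in 1 and 0 MM.1S cells. The receptors were thus seen in HS-5 cells and in at most 2 MM.1S cells of a group. For scale, TNFRSF13B, a receptor gene of MM.1S, was seen in 8.73% of cocultured MM.1S cells and in 1 of 1809 cocultured HS-5 cells.

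TRAF3 was seen in 1.54% of HS-5 cells alone (1.16 to 2.00%) and 0.940% in coculture (0.548 to 1.5%), against 0.431% of MM.1S cells alone (0.251 to 0.689%) and 0 of 1191 in coculture, which at 3 counts allows up to 0.252% (exact upper bound 0.309%). These limits hold for cells with a UMI at this depth, not for cells that express the gene. BIRC2 was seen in 2.28%, 2.69%, 2.45% and 2.27% of cells of MM.1S alone, MM.1S in coculture, HS-5 alone and HS-5 in coculture, with overlapping intervals. BIRC3 was seen in 1.39%, 2.52%, 1.37% and 1.05%. Any of the 3 brakes was seen in 4.08% of MM.1S cells alone (3.48 to 4.74%), 5.12% in coculture (3.94 to 6.53%), 5.21% of HS-5 cells alone (4.50 to 5.99%) and 4.09% in coculture (3.23 to 5.11%), so at this depth the intervals of the 4 groups overlapped. At 1000 UMIs per cell the shares were 7.52%, 7.94%, 11.5% and 10.3%, with the HS-5 intervals (10.1 to 13.1% and 8.47 to 12.3%) above that of MM.1S alone (6.71 to 8.40%). Only 378 of 1635 cocultured MM.1S cells had that depth, and their interval (5.42 to 11.1%) overlapped the others.

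**Figure D3:**
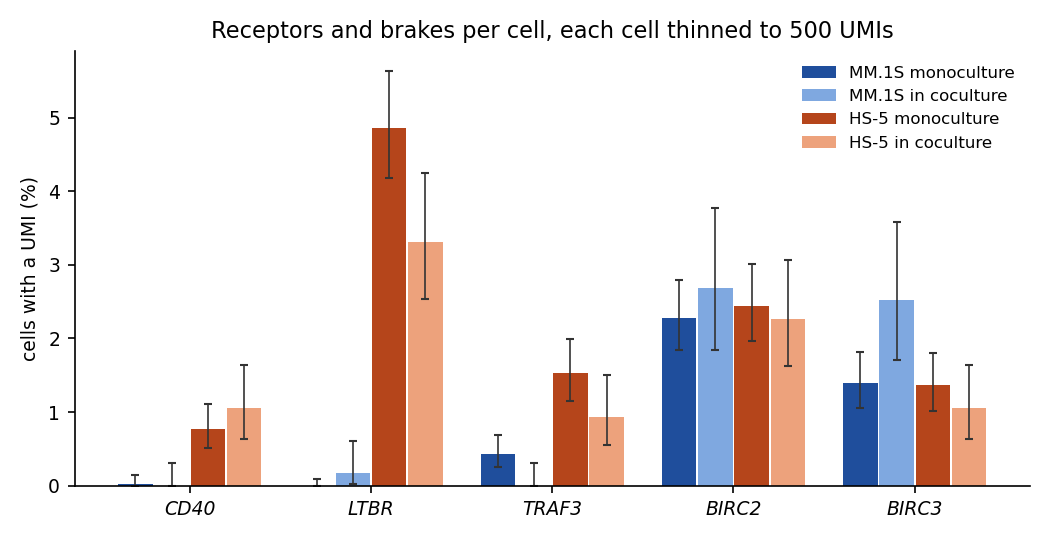
Share of cells with at least 1 UMI of each receptor and brake gene after thinning to 500 UMIs per cell, with bars from 0 and 95% exact Clopper-Pearson intervals. LTBR reaches 4.86% in HS-5 monoculture and is absent or near absent in MM.1S, while BIRC2 lies between 2.27% and 2.69% in all groups.

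Other receptors that feed the pathway were counted from a list of 9, of which 4 passed the minimum between monocultures, 1 at least 2-fold higher in HS-5 and 3 lower, where all genes gave 38.1% and 15.3%. Of the receptors of BAFF and APRIL, MM.1S held TNFRSF13B and TNFRSF17: TNFRSF13B (TACI) had 117 CPM alone and 162 CPM in coculture, and TNFRSF17 (BCMA) 111 and 81.6 CPM, while HS-5 had 0.163 and 4.02 CPM of the first and 0.488 and 0.804 CPM of the second. TNFRSF1B, the TNF receptor TNFR2, had 39.2 and 74.8 CPM in MM.1S and 9.28 and 10.5 CPM in HS-5. TNFRSF12A, the receptor of TWEAK, went the other way, with 151 and 117 CPM in HS-5 and 28.4 and 16.6 CPM in MM.1S. TNFRSF13C, the BAFF receptor, was scarce in both lines, with 3.74 and 2.27 CPM in MM.1S alone and in coculture and 2.60 and 2.81 CPM in HS-5, and its intervals between the lines held 0.

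Of 8 ligands, only LTB, the gene of lymphotoxin-β, reached 10 CPM in any group. It had 588 UMIs or 56.4 CPM in MM.1S monoculture and 22 UMIs or 16.6 CPM in cocultured MM.1S, a log2 ratio of -1.76 (-2.45 to -1.15). HS-5 monoculture had 0 LTB UMIs, at a floor of 0.488 CPM for 3 counts, and cocultured HS-5 had 2. LTB and LTBR were thus counted in opposite lines, LTB in MM.1S and LTBR in HS-5. LTA, whose product joins lymphotoxin-β in the LTBR ligand, had 0 UMIs in MM.1S monoculture and 1 in cocultured MM.1S. LTA and TNFRSF13C stayed under 10 CPM in all groups and were named after their values were seen.

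**Figure D4:**
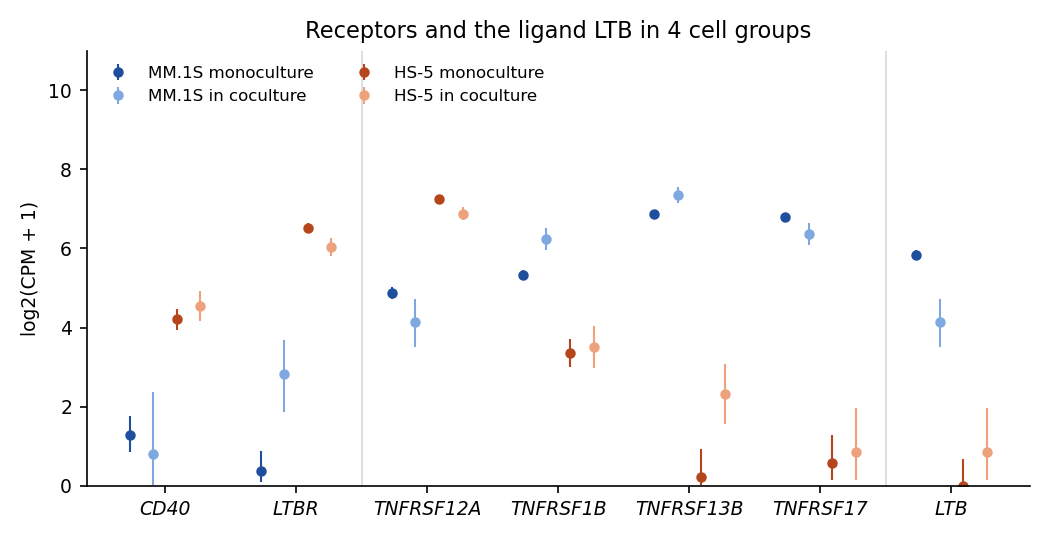
Levels of 6 receptor genes and of LTB as log2(CPM + 1) in the 4 cell groups, with 95% exact Poisson intervals. CD40, LTBR and TNFRSF12A are higher in HS-5, while TNFRSF1B, TNFRSF13B, TNFRSF17 and LTB are higher in MM.1S.

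Of 10 other regulators, 7 passed between monocultures, 3 at least 2-fold higher in HS-5 and 2 lower, beside 38.1% and 15.3% of all genes. XIAP, an inhibitor of caspases, had 53.7 CPM in MM.1S and 126 CPM in HS-5 alone. ZFP91, a ubiquitin ligase reported to stabilise NIK, had 32.4 and 159 CPM. In cocultured MM.1S they had 125 and 120 CPM, both at least 2-fold higher than in MM.1S alone. They were 2 of 7 regulators that passed there, beside 19% of all genes. Neither gene was read under median-of-ratios or TMM scaling, which put that share at 8.48% and 7.50%. The 2 lower genes were PELI1, with 26.3 CPM in MM.1S and 7.49 CPM in HS-5 alone, and TRAF5, with 31.2 and 11.2 CPM. TRAF1, which did not pass at a mean of 8.46 CPM, had 14.0 CPM in MM.1S and 2.93 CPM in HS-5. Of 8 pathway targets, 6 were listed and 3 passed between monocultures, 1 at least 2-fold higher in HS-5 and 2 lower, beside 38.1% and 15.3% of all genes. CXCL12, a homing chemokine that stroma makes in the marrow, had 75.8 CPM in MM.1S alone, 155 CPM in cocultured MM.1S, and 4.40 and 3.22 CPM in HS-5. ENPP2, autotaxin, had 77.2 and 105 CPM in HS-5 and 0.383 and 3.78 CPM in MM.1S. ICAM1 had 44.0 and 34.8 CPM in MM.1S alone and in coculture, and 10.6 and 13.3 CPM in HS-5.

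Of 10 genes of the canonical pathway, 8 passed between monocultures, 3 of them at least 2-fold higher in HS-5, close to the 38.1% of all genes, and none lower, against 15.3%. NFKB1 had 14.9 CPM in MM.1S and 98.5 CPM in HS-5 alone, and 43.8 and 67.5 CPM in the coculture. In MM.1S cells, 4 of 9 canonical genes were at least 2-fold higher in the coculture, beside 19% of all genes. They were NFKB1, NFKBIB, IKBKB and BCL3. Median-of-ratios and TMM scaling lowered the ratios of this comparison and put that share at 8.48% and 7.50%. The canonical genes were not counted under those scalings, so 4 of 9 can be set beside 19% only. BCL3, which binds the processed forms of NFKB1 and NFKB2, had 1.05 CPM in MM.1S alone and 22.7 CPM in cocultured MM.1S. The canonical genes were not set against the non-canonical genes by any test.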

How the data were processed

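The authors deposited whole-number UMI counts per gene and cell barcode, not normalized, for 3 Drop-seq libraries. Per the submitters' processing notes, the tools were Cell Ranger 3.0.2, UMI-tools 1.0.0, STAR 2.5.3a, Subread with featureCounts 1.6.4 and SAMtools 1.9, with GRCh38 (hg38). The annotation, the use of strand and the choice of barcodes are not given in the sources used here.

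Cells with at least 200 genes were kept. Line-specific genes had at least 50 CPM and a 50-fold difference between monocultures. A coculture cell with at least 5 line-specific UMIs was called MM.1S at an HS-5 share of at most 0.2, HS-5 at 0.8 or more, and otherwise left out, which removes doublets of both lines but not those within a line. Counts were summed per group and scaled to CPM, for which 1 UMI was worth 0.0958, 0.756, 0.163 and 0.402 CPM in MM.1S alone, MM.1S in coculture, HS-5 alone and HS-5 in coculture. All 10 members were named, and of other lists the genes with at least 10 CPM in a group could be. The members and lists were chosen with earlier results of these data known. The steps were tested on simulated data. Python 3.11.15, numpy 2.4.6, scipy 1.17.1, pandas 2.3.3, matplotlib 3.10.9, R 4.3.3 and edgeR 4.0.16 (TMM factors only) were used. Alternatives covered scaling, pseudocount, filters, weights, depth, line calls and free RNA. Leaving out shared barcodes or each member's highest cell, and the neighbours of TRAF3, were added after seeing the data. The overlap of gene models comes from GENCODE release 29.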

Additional observations from a re-analysis of the deposited data

Results flagged for a closer look

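In the summed counts at plain CPM, BIRC3 and LTBR had ratios of opposite sign in the lines for coculture over monoculture. Each ratio had an interval that excluded 0. The intervals treat each UMI as a separate count, so for LTBR in MM.1S a difference beyond counting error was not shown. The MM.1S intervals were not taken under median-of-ratios or TMM scaling. These put the median of all genes in MM.1S at -0.24 and -0.30, from 0.24. The log2 ratio of BIRC3 (pseudocount of 1 CPM) was 0.915 in MM.1S and -0.764 in HS-5. In HS-5 it came to -0.23 with equal weight per cell and -0.17 in cells of 400 to 1200 UMIs. That of LTBR was 2.45 in MM.1S and -0.475 in HS-5. With 1 library per condition the difference between the lines was not tested. The LTBR UMIs were in 2 of 1635 cocultured MM.1S cells and in 3 of 3947 MM.1S monoculture cells. Without the higher of the 2 cocultured cells the ratio in MM.1S was 1.46.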

How the results depend on the processing

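Values here are log2 ratios with a pseudocount of 1 CPM. Of 640 values of the 10 genes under 16 alternatives, 612 moved by less than the counting interval, 27 moved more and 1 reversed, TRAF3 in MM.1S coculture over monoculture in cells of 400 to 1200 UMIs (1.15, from 1 UMI against 0). Part of the 612 could not move. Dropping the minimum level changes no ratio, and line calls and free RNA do not touch the ratios between monocultures. Of 40 values each, median-of-ratios scaling moved 8 and TMM scaling 5. Cells of 400 to 1200 UMIs moved 7 beside the reversed 1. Of 224 values of ratios past 2-fold, 211 were still past it in size, with the reversed value of TRAF3 counted among them. These too include values that could not move. Between monocultures 3 genes were past 2-fold with median-of-ratios scaling and 3 in cells of 400 to 1200 UMIs (NFKB2, TRAF3 and LTBR in each), and within the coculture 2 in that window (TRAF3 and LTBR). In MM.1S, coculture over monoculture, the count was 0 with median-of-ratios and 0 with TMM scaling, 2 with equal weight per cell and 2 with 20-fold line genes (TRAF2 and CHUK in each), and 3 with no minimum level (CHUK, LTBR and TRAF3). In HS-5 it was 1, RELB, with 200 to 2500 genes and under 5% mitochondrial UMIs, 1 with equal weight, 1 in the 400 to 1200 window and 1 with no minimum. The cause was not tested. Thinning to 1000 UMIs gave any brake in 7.52% of MM.1S cells alone, 7.94% in coculture, 11.5% of HS-5 cells alone and 10.3% in coculture (378 of 1635 cocultured MM.1S cells had that depth); more UMIs per cell give higher shares by construction.

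No paired analysis was possible because the labels give no replicate numbers and each condition is 1 library, and for the same reason no replicate was left out. Depth limits the cocultured MM.1S cells most, where 3 counts are worth 2.27 CPM.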
